A study of Sus scrofa with 18 samples.

Results

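The Wnt ligands, receptors and regulators described here are 46 of the 15240 genes counted in porcine (Sus scrofa) kidney cells, chosen by gene symbol as the families of Wnt ligands, their receptors, their secreted inhibitors and the core of the pathway inside the cell. They were 10 Wnt ligands, the ligand secretion factors WLS and PORCN, 8 Frizzled receptors, the coreceptors LRP5 and LRP6, the receptors ROR1, ROR2 and RYK, the R-spondin receptor LGR4 and the receptor ubiquitin ligases RNF43 and ZNRF3. The others were 7 secreted inhibitors, the R-spondin RSPO1, 3 Dishevelled proteins, 3 proteins of the destruction complex, beta-catenin and 3 TCF/LEF transcription factors. A further 19 symbols of these families, such as DKK1, LGR5, WNT3A and WNT11, were not analysed here. RNA was measured in 18 libraries from purchased cells that the labels call primary kidney endothelial cells (KEC), the cells that line blood vessels.

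By their labels, 5 libraries were cell-cell interaction, 5 were ST8Sia6 plasmid (spelled St8i6a in the labels), 1 was a negative sample of KEC plus all cells, 5 were GFP control and 2 were wild type. All came from the same kind of purchased cells, bought at passage 3 and frozen at passage 5, and grown in a medium with VEGF, EGF and hydrocortisone. ST8Sia6 attaches sialic acid, an acidic sugar, to the glycans of the cell, and GFP is a fluorescent protein that serves as the plasmid control. The plasmids were delivered by Lipofectamine LTX, a lipid reagent, and the cells were used 24 hours later. The protocol describes transfected cells kept together with peripheral blood mononuclear cells (PBMCs), and speaks of 4 experiments. That is taken here as what cell-cell interaction stands for, though leukocyte markers, given below, did not set that label apart. The plasmid carried by each cell-cell interaction library is not named in its label. Nothing in the labels pairs libraries or says which came from separate cultures, so every p-value measures the spread between these libraries, which may be technical.

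Wnt proteins are secreted signals that need the lipid-adding enzyme PORCN and the carrier WLS to leave the cell. At the surface of a receiving cell they bind a Frizzled receptor, together with LRP5 or LRP6 for the branch that stabilises beta-catenin, or with ROR or RYK receptors for branches that act without it. AXIN and APC hold beta-catenin in a complex that destroys it, Dishevelled disables that complex, and TCF/LEF factors carry beta-catenin's effect to DNA. In kidney and in blood vessels the pathway is known for its part in development, in vessel growth and in repair after injury.

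Several libraries did not follow their labels in the authors' own comparisons, and this bears on each result. The 4 log2 fold changes in the authors' deposited tables were regressed, across genes, on the log2 values of the 18 libraries, which accounted for 0.871 to 0.941 of their variance. In the deposited comparison of St8i6a plasmid with GFP control, GFP control 5 had a weight of 0.34 and ST8Sia6 plasmid 1 to 3 had weights of 0.38, 0.26 and 0.28, while GFP control 1 to 4 had weights of -0.27, -0.46, -0.28 and -0.25. ST8Sia6 plasmid 4 and 5 had the sign of the authors' interaction-with-GFP side, beside cell-cell interaction 1 and 2, with weights of 0.24 and 0.30 in the comparison of the interaction sides. Cell-cell interaction 3, 4 and 5 and wild type 1 had the sign of the other interaction side, with weights of -0.30, -0.31, -0.40 and -0.17. GFP control 2 had -0.12 there. Sides are thus inferred from weights, and weights of libraries that are nearly alike, such as cell-cell interaction 5 and wild type 1, are not well separated. Groups were kept by label here. Counts of called genes are also given without some of these libraries, while per-kilobase levels and family shares are given by label or over all libraries only.

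Depth was 14867035 to 33301008 counts per library, and the 46 genes took 0.194% to 0.326% of them. Mitochondrially encoded genes took 13.8% to 25.4% of counts in cell-cell interaction 1 to 4. They took 17.5% in ST8Sia6 plasmid 4 and 16.7% in ST8Sia6 plasmid 5, while the other 12 libraries had 1.22% to 4.32%. The row of ST8SIA6, the gene the plasmid is named for, held 0 to 28.2 CPM (counts per 1000000 counts of a library, scaled by TMM) in cell-cell interaction libraries, 0 to 2.84 CPM in ST8Sia6 plasmid, 0 CPM in KEC plus all cells, 0 to 0.97 CPM in GFP control and 0 to 0.0322 CPM in wild type, so it did not separate the labels. Whether that row can count the plasmid's transcript is not given in the sources used here. Pairs of libraries with different labels were nearly alike: KEC plus all cells and wild type 2 differed by 2-fold or more on the log2(CPM + 0.5) scale at 5 of 15240 genes, GFP control 5 and ST8Sia6 plasmid 1 also at 5, and none of the 46 Wnt genes was among them. The endothelial markers CDH5, VWF, KDR and TEK were not analysed here. The other 10 of 14 summed to 80.4 to 172 CPM in cell-cell interaction, 55.0 to 79.2 in ST8Sia6 plasmid, 183 in KEC plus all cells, 47.9 to 62.2 in GFP control and 118 to 182 in wild type. Most of each sum was the single gene FLT1, at 67.0 to 160 CPM in cell-cell interaction and 158 in KEC plus all cells. FLT1 had 43.8 to 68.7 CPM in ST8Sia6 plasmid, 35.1 to 46.6 in GFP control and 106 and 156 in wild type. PECAM1 had 0.879 to 4.86 CPM over all libraries. Kidney epithelial markers, 11 of 13 listed, were more abundant in sum, at 1167 to 1927 CPM in cell-cell interaction and 1532 to 2501 in ST8Sia6 plasmid. They summed to 2061 in KEC plus all cells, 2142 to 3059.9 in GFP control and 1794 to 2096 in wild type. The keratins KRT8, KRT18 and KRT7 made up most of each epithelial sum. EPCAM had 0.237 to 20.6 CPM and CDH16 0.721 to 20.02 CPM over all libraries. Leukocyte markers, 9 of 12 listed, summed to 33.7 to 51.0 CPM in cell-cell interaction, 30.5 to 44.1 in ST8Sia6 plasmid and 60.7 in KEC plus all cells. They summed to 26.9 to 107 in GFP control and 55.4 to 58.9 in wild type. The leukocyte marker PTPRC had 0 CPM in cell-cell interaction 1 to 4 and in KEC plus all cells. It had 2.19 CPM in cell-cell interaction 5, and 4.01 and 8.06 in GFP control 1 and 2. In bulk RNA such as this, fewer cells of a type and less RNA per cell cannot be told apart.

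Levels of different genes were compared as CPM per kilobase of deposited gene length, over all 18 libraries. These values hang on the unit: as TPM, which rescales each library to 1000000 after dividing by length, the FZD6 median was 188 and that of WNT5A 29.04. Among receptors, FZD6, a Frizzled receptor best known from cell polarity, was the most abundant with a median of 75.0 CPM per kilobase (33.6 to 118). RYK, a receptor without kinase activity, followed at 50.01 (27.0 to 73.3), and the coreceptors LRP5 and LRP6 had medians of 18.7 and 12.8. The ranges of FZD6 and RYK overlapped, as did those of LRP5 and LRP6. FZD4, the Frizzled receptor known for its role in retinal vessels, had the lowest receptor median, 0.377 (0.270 to 0.562), and its row overlaps PRSS23 on the opposite strand.

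Among ligands, WNT5A, the main ligand of branches that act without beta-catenin, had the highest median, 12.4 CPM per kilobase (9.22 to 33.5). WNT7A, known in the vessels of the brain and in the female reproductive tract, came next at 7.25 (3.04 to 14.4), then its relative WNT7B at 3.25 (1.56 to 13.9). WLS, the carrier, stood above every ligand at a median of 34.8 (21.0 to 56.9). WNT2 and WNT3 were near the lower end of what was counted, with medians of 0.0791 and 0.019, and their rows overlap ST7 and NSF on the opposite strand.

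Among secreted inhibitors, the Frizzled-related proteins SFRP2 and SFRP5, which bind Wnt proteins outside the cell, were highest, with medians of 11.2 (5.23 to 41.1) and 9.51 (1.17 to 27.2). SFRP4 followed at 4.02 and DKK3, a divergent member of the Dickkopf family, at 3.91 (1.93 to 33.5). WIF1 was the lowest of the inhibitors at 0.366. RSPO1, which is no inhibitor but protects Frizzled receptors from removal, was grouped with them and was lower still at 0.127. Inside the cell, CTNNB1, which encodes beta-catenin, had a median of 56.5 (44.5 to 78.4), above DVL1 at 29.1 and DVL3 at 21.0. Of the 46 genes, 43 averaged at least 1 CPM over the 18 libraries.

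**Figure D1:**
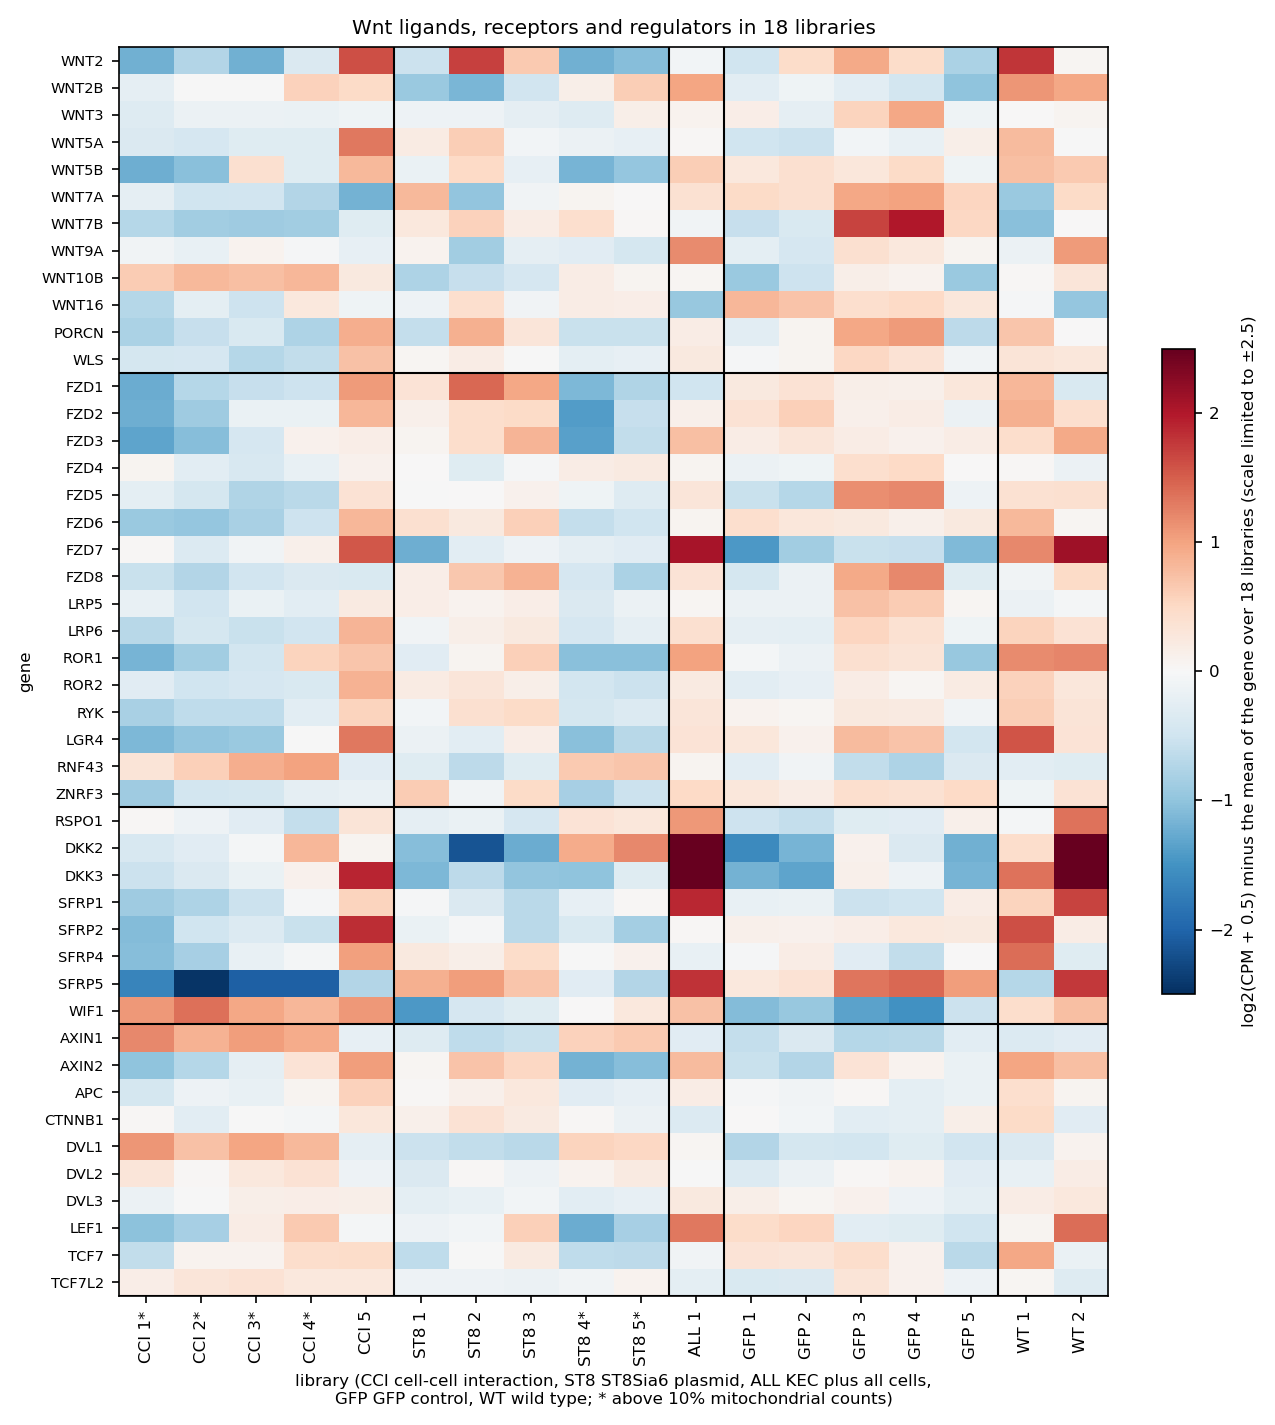
Each cell shows 1 of the 46 Wnt genes (down) in 1 of 18 libraries (across), as log2(CPM + 0.5) minus the gene's mean over the libraries, and a star marks the 6 libraries above 10% mitochondrial counts. Columns run from cell-cell interaction through ST8Sia6 plasmid, KEC plus all cells and GFP control to wild type, and cell-cell interaction 5 is unlike the other 4 libraries of its label.

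The make-up of each family was described as the share of its summed CPM per kilobase. FZD6 held 79.3% ± 1.61 of the Frizzled sum in cell-cell interaction, 80.3% ± 3.82 in ST8Sia6 plasmid, 77.9% in KEC plus all cells, 80.9% ± 4.92 in GFP control and 79.3% ± 4.49 in wild type (SD, n = 5, 5, 1, 5 and 2). That share was nearly even although the Frizzled sum itself was 43.2 to 144 CPM per kilobase in cell-cell interaction and 93.5 to 102 in GFP control. The inhibitors were arranged otherwise: SFRP5 held 5.82% to 15.1% of the inhibitor sum in cell-cell interaction, against 31.6% to 48.6% in GFP control. DKK3 took 21.1% to 24.6% of it in cell-cell interaction and 5.72% to 12.7% in GFP control, and neither of these pairs of ranges overlapped. A share also rises where another member falls. The inhibitor sum was 14.6 to 76.6 CPM per kilobase in cell-cell interaction and 29.0 to 43.1 in GFP control. DKK3 itself, at 16.2 to 90.8 and 9.28 to 26.1 CPM, overlapped between these labels and was not called. Of the ligand sum, WNT5A was 45.5% to 72.0% in cell-cell interaction and 25.2% to 42.9% in GFP control, and WNT7A was 6.54% to 26.5% in cell-cell interaction and 30.3% to 36.3% in GFP control. The level of WNT5A, 69.5 to 235 CPM in cell-cell interaction and 64.6 to 103 CPM in GFP control, overlapped and was not called. The SFRP5 share also differed within a label, at 6.74% in wild type 1 and 30.2% in wild type 2.

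**Figure D2:**
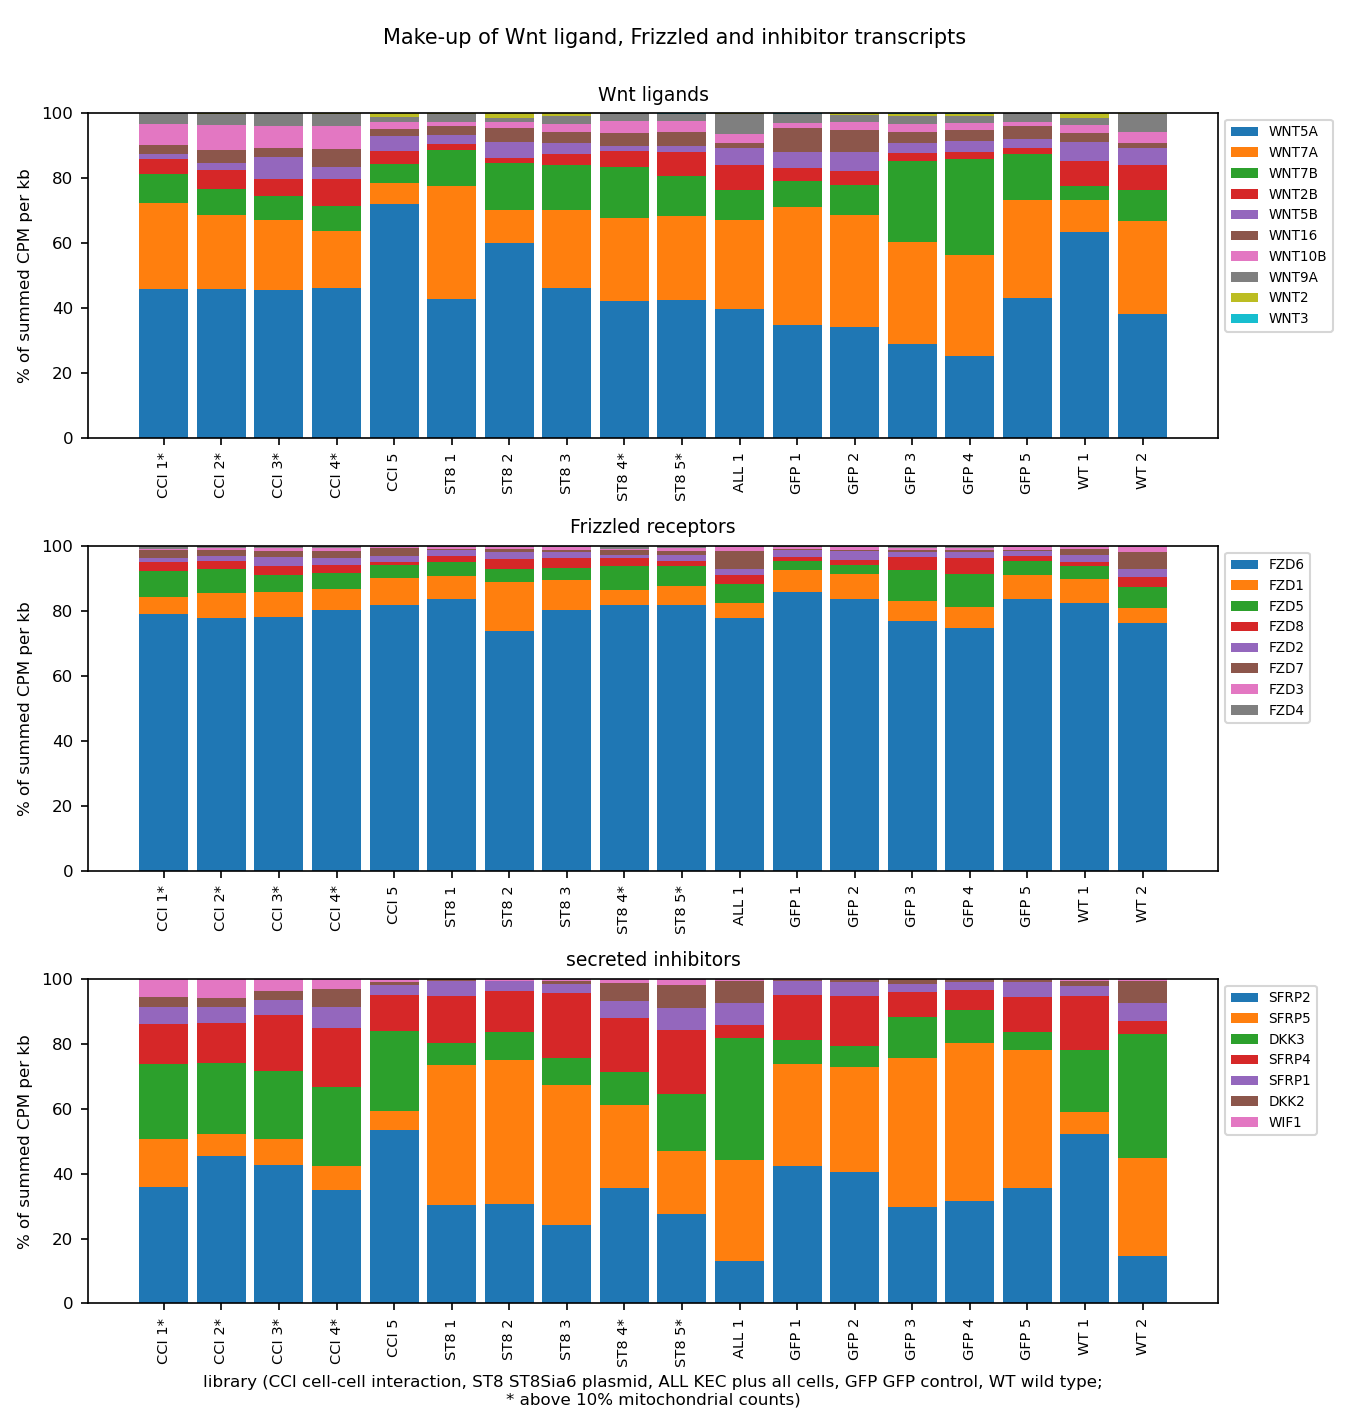
Stacked bars give each member's percent of its family's summed CPM per kilobase in each of 18 libraries, for Wnt ligands, Frizzled receptors and secreted inhibitors. FZD6 fills about the same part of every Frizzled bar, while the SFRP5 part of the inhibitor bars is 5.82% to 15.1% in cell-cell interaction and 31.6% to 48.6% in GFP control.

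The comparison of cell-cell interaction with GFP control asks what the cell-cell interaction label goes along with in the Wnt genes. The authors' comparisons name an interaction side with GFP and an interaction side with st8i6a. By the weights above, cell-cell interaction 1 and 2 lay on the GFP side and 3, 4 and 5 on the st8i6a side. Contact with PBMCs and plasmid therefore cannot be told apart in this comparison by label. The secreted inhibitor WIF1, the scaffold AXIN1, DVL1, the ligands WNT10B and WNT2B, the ubiquitin ligase RNF43 and the receptor FZD7 were higher, and the inhibitor SFRP5, the ligands WNT7A, WNT7B and WNT16, the ligase ZNRF3 and the receptor FZD8 were lower. This made 13 of 43 Wnt genes tested at an adjusted p under 0.05 (the quasi-likelihood test of edgeR, with p-values adjusted by Benjamini-Hochberg over all genes), 30.2%, where 39.5% of all 13951 genes tested were called. Their 7 rises compare with 20.8% of all genes called higher and their 6 falls with 18.7% called lower. The median log2 fold change was -0.01 over the Wnt genes and -0.02 over all genes. The labels did not overlap at 9 of the 43, 5 higher and 4 lower, against 24.6% of all genes, 11.7% higher and 12.9% lower. RSPO1, WNT2 and WNT3 were too low to be tested.

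Ligands moved both ways, with 2 of the 10 tested higher and 3 lower. WNT7A (chromosome 13, 70538894 to 70602455, plus strand, susScr11) had 18.9, 15.5, 15.9, 13.1 and 9.53 CPM in cell-cell interaction 1 to 5, against 30.9, 29.4, 43.6, 45.0 and 32.5 CPM in GFP control 1 to 5. Wild type 1 and 2 had 11.3 and 31.1 CPM. Every GFP control library was above every cell-cell interaction library. The means were 14.6 ± 3.48 and 36.3 ± 7.41 CPM (SD, n = 5 each), a log2 fold change of -1.29 (SE 0.20, edgeR's quasi-likelihood adjusted p = 0.00103).

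WNT10B (chromosome 5, 14997381 to 15013919, minus strand), a ligand of the beta-catenin branch known from bone and fat, had 7.24, 8.27, 7.96, 8.48 and 5.41 CPM in cell-cell interaction and 2.15, 3.02, 5.08, 4.80 and 2.14 CPM in GFP control. Cell-cell interaction 5 was closest to GFP control 3 and 4, but the labels did not overlap. Its means were 7.47 ± 1.24 and 3.44 ± 1.42 CPM, with a log2 fold change of 1.15 (SE 0.28, adjusted p = 0.00899). WNT7B had 7.78, 6.93, 6.89, 6.98 and 10.6 CPM in cell-cell interaction, against 8.67, 10.0, 43.7, 54.5 and 19.1 CPM in GFP control. The GFP control libraries split, with 3 and 4 far above the rest, and cell-cell interaction 5 lay among the lower GFP control values. WNT7B changed by -1.76 (SE 0.48, adjusted p = 0.0151). WNT16 averaged 2.79 ± 0.875 CPM in cell-cell interaction and 5.17 ± 0.888 in GFP control (log2 fold change -0.86, SE 0.24, adjusted p = 0.0159) without overlap. WNT2B averaged 9.35 ± 2.41 and 6.06 ± 1.42 CPM (0.65, SE 0.23, adjusted p = 0.0391), with overlapping labels and a row that overlaps ST7L on the opposite strand. The WNT2B call was lost when any 1 library was left out, save cell-cell interaction 1 and GFP control 2. In wild type 1 and 2, WNT2B had 18.04 and 16.3 CPM. Without GFP control 5, whose weight in the deposited St8i6a comparison had the sign of ST8Sia6 plasmid 1 to 3, 12 of the 44 Wnt genes then tested passed, where 39.1% of all genes did.

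Of 16 receptors and their regulators tested, 2 rose and 2 fell. FZD7 (chromosome 15, 105644188 to 105648854, plus strand), a Frizzled receptor known from stem cells, had 4.97, 3.72, 4.51, 5.38 and 15.2 CPM in cell-cell interaction and 1.47, 2.41, 3.15, 3.08 and 1.98 CPM in GFP control. Wild type 1 and 2 had 11.8 and 22.8 CPM. Cell-cell interaction 5 was far above the rest of its label, and cell-cell interaction and GFP control did not overlap without it either. FZD7 rose by 1.52 on the log2 scale (SE 0.40, adjusted p = 0.0128), and by 0.97 (adjusted p = 0.0102) without cell-cell interaction 5. FZD8, another Frizzled receptor, averaged 2.12 ± 0.265 CPM in cell-cell interaction and 4.42 ± 2.64 in GFP control and changed by -1.03 (SE 0.37, adjusted p = 0.0479). Its call was lost without any 1 of the cell-cell interaction libraries, and without GFP control 3 or 4.

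The 2 ubiquitin ligases that take Frizzled receptors off the cell surface went opposite ways. ZNRF3 (chromosome 14, 46091911 to 46241321, plus strand) had 4.92, 6.80, 6.95, 8.09 and 8.38 CPM in cell-cell interaction, against 11.8, 10.9, 12.9, 12.6 and 13.6 CPM in GFP control. All GFP control libraries were higher, and the log2 fold change was -0.78 (SE 0.16, adjusted p = 0.00362). RNF43 had 4.76, 5.90, 7.42, 7.98 and 2.97 CPM in cell-cell interaction and 2.99, 3.45, 2.24, 1.96 and 2.78 CPM in GFP control. Cell-cell interaction 1 to 4 were above all GFP control libraries and cell-cell interaction 5 was among them. RNF43 changed by 1.14 (SE 0.28, adjusted p = 0.00965). Both genes are also known as targets that beta-catenin switches on, and of the 9 such target genes tested, these were the only 2 that passed in this comparison, where 39.5% of all genes were called. With the term for libraries above 10% mitochondrial counts described below, ZNRF3 was at -0.17 (adjusted p = 0.753) and RNF43 at 0.10 (adjusted p = 0.86), and neither passed.

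Among 7 secreted inhibitors tested, WIF1 rose and SFRP5 fell, and these were the lowest adjusted p-values of the Wnt genes. WIF1 (chromosome 5, 29450442 to 29548116, minus strand), which binds Wnt proteins directly, had 3.03, 3.78, 2.73, 2.44 and 3.003 CPM in cell-cell interaction, against 0.283, 0.360, 0.152, 0.0800 and 0.646 CPM in GFP control. Wild type 1 and 2, with 1.74 and 2.30 CPM, were also above all GFP control libraries. All 5 cell-cell interaction libraries were above all GFP control libraries, cell-cell interaction 5 included. Its means were 2.997 ± 0.501 and 0.304 ± 0.22 CPM, a log2 fold change of 3.31 (SE 0.43, adjusted p = 0.00047), with as few as 2 counts in a GFP control library.

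SFRP5 (chromosome 14, 109119822 to 109125686, minus strand) had 3.89, 2.05, 2.85, 2.88 and 7.86 CPM in cell-cell interaction, against 16.2, 17.3, 34.5, 36.9 and 28.3 CPM in GFP control. Wild type 1 and 2 had 7.99 and 46.6 CPM. Cell-cell interaction and GFP control were well apart, with means of 3.91 ± 2.3 and 26.7 ± 9.59 CPM. The change was -2.72 on the log2 scale (SE 0.38, adjusted p = 0.000668). The SFRP5 row overlaps ZFYVE27 and GOLGA7B on the opposite strand, and since strand handling is not given in the sources used here, its counts are uncertain.

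Of 10 genes that act inside the cell, AXIN1 and DVL1 rose and none fell. AXIN1 (chromosome 3, 41337071 to 41393997, plus strand), the scaffold of the destruction complex, had 138, 110, 125, 114 and 51.9 CPM in cell-cell interaction and 39.7, 46.4, 36.4, 37.1 and 50.03 CPM in GFP control. DVL1 (chromosome 6, 63617789 to 63629229, minus strand), which opposes that complex, had 227, 175, 210, 184 and 90.8 CPM in cell-cell interaction and 63.5, 77.7, 76.4, 85.9 and 75.2 CPM in GFP control. For both, cell-cell interaction 1 to 4 were far above GFP control and cell-cell interaction 5 stood just above the highest GFP control library. Wild type 1 and 2 had 47.5 and 49.3 CPM of AXIN1, and 81.8 and 112 CPM of DVL1.

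AXIN1 changed by 1.39 (SE 0.23, adjusted p = 0.00147) and DVL1 by 1.26 (SE 0.22, adjusted p = 0.00169). With the mitochondrial term they were at 0.36 (adjusted p = 0.162) and 0.25 (adjusted p = 0.327), and with libraries under 10% mitochondrial counts only at 0.26 (adjusted p = 0.639) and 0.22 (adjusted p = 0.607). The DVL1 row overlaps UBE2J2 on the same strand, so reads could be shared with it. CTNNB1 averaged 529 ± 71.2 CPM in cell-cell interaction and 498 ± 59.4 in GFP control and was not called. LEF1, a TCF/LEF factor that T cells also use, had 6.05 to 20.6 CPM in cell-cell interaction and 8.96 to 18.8 in GFP control. Its 2 highest GFP control values, 17.97 and 18.8, were in libraries 1 and 2, where the T cell marker LCK had 1.67 and 3.52 CPM against 0 in GFP control 3 to 5, and 9 leukocyte markers summed to 75.5 and 107 CPM against 26.9 to 33.1. Where LCK was 0, LEF1 had 20.6 CPM in cell-cell interaction 4, 32.96 in KEC plus all cells and 34.5 in wild type 2. In cell-cell interaction 5, LCK had 1.08 CPM and LEF1 12.4 CPM. The part of leukocytes in the LEF1 level was not tested.

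**Figure D3:**
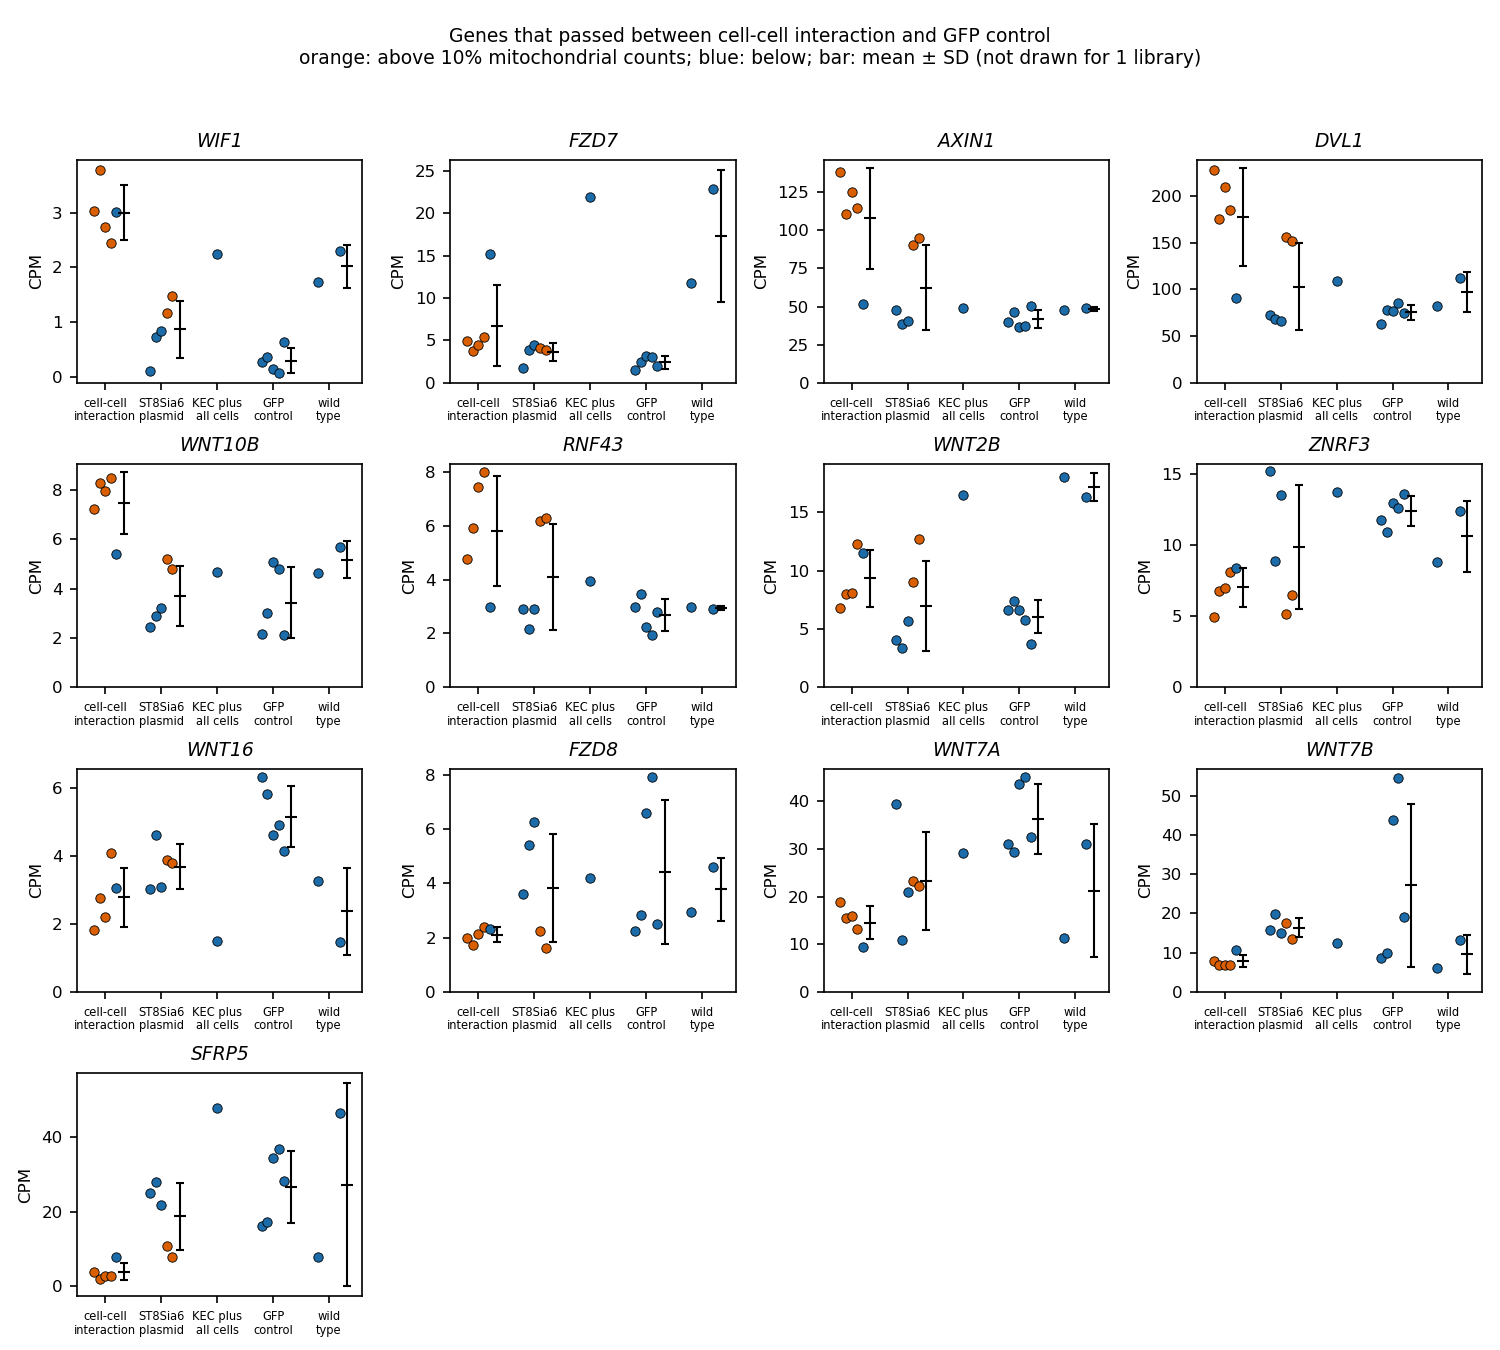
Each panel shows 1 of the 13 Wnt genes called between cell-cell interaction and GFP control, with 1 point per library in CPM. Labels run from cell-cell interaction (left) through ST8Sia6 plasmid, KEC plus all cells and GFP control to wild type (right). Points are orange above 10% mitochondrial counts and blue below. A bar gives the mean with SD (n = 5 each, but 2 in wild type), with none for KEC plus all cells, which is 1 library. Cell-cell interaction 5, the only blue point of its label, has 51.9 CPM of AXIN1 where the others have 110 to 138, and 15.2 CPM of FZD7 where the others have 3.72 to 5.38.

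Cell-cell interaction 5 set many of these values. It lay 2-fold or more beyond all of the other 4 libraries at 4.35% of genes upward and 2.64% downward. Among the Wnt genes, 13 lay so upward and AXIN1 downward. FZD6 was 470 CPM there and 134 to 184 CPM in libraries 1 to 4, WLS 423 and 156 to 191 CPM, WNT5A 235 and 69.5 to 75.9 CPM, and SFRP2 89.5 and 11.4 to 19.3 CPM. At no Wnt gene did it differ by 2-fold or more from wild type 1, from which it differed at 0.636% of genes upward and 0.0853% downward. Some markers of other cells also set it apart. The 5 fibroblast and pericyte markers analysed, of 11 listed, summed to 37594 CPM in cell-cell interaction 5 and 6613 to 10449 CPM in libraries 1 to 4. Most of that sum was the collagens COL1A1 (18340 CPM against 3430 to 5495) and COL1A2 (17490 against 3042 to 4637). COL3A1 was also higher (1730 against 96.5 to 260). PDGFRB, at 29.8 CPM, lay within the 17.5 to 51.9 CPM of libraries 1 to 4. TCF21, at 4.49 CPM, lay below their 5.54 to 8.08 CPM. The T cell marker LCK had 1.08 CPM in cell-cell interaction 5 and 0 to 0.0541 CPM in libraries 1 to 4. Kidney epithelial markers summed to 1167 CPM in cell-cell interaction 5 and 1349 to 1927 CPM in libraries 1 to 4. The part of these cell types in the Wnt levels was not tested.

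With cell-cell interaction 1 to 4 alone against GFP control, a choice made after seeing the data, 23 of 43 Wnt genes passed, 7 higher and 16 lower, where 50.5% of all genes were called, 24.0% higher and 26.5% lower. FZD6 then fell by 1.04 on the log2 scale (SE 0.12, adjusted p = 0.000102), and FZD1, FZD2 and FZD3 fell by 1.01, 0.93 and 0.83. RYK, ROR2, LRP6, LGR4, WLS, PORCN and SFRP2 fell as well, while DVL2 rose by 0.40 (SE 0.13, adjusted p = 0.0236). WNT2B (0.56, adjusted p = 0.0678) and FZD8 (-1.07, adjusted p = 0.0539) no longer passed.

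With cell-cell interaction 5 alone on the other side, 3 Wnt genes passed, 2 higher and 1 lower, where 0.948% of all genes did, 0.623% higher and 0.325% lower. SFRP2 was higher by 1.63 (adjusted p = 0.0107), FZD7 by 2.61 (adjusted p = 0.0355), and WNT7A was lower at -1.97 (adjusted p = 0.0493), with that lone library assumed to vary like GFP control. SFRP2, a secreted inhibitor, thus passed in opposite directions in the 2 subsets, at -0.77 (adjusted p = 0.00179) with libraries 1 to 4. FZD7 and WNT7A kept the direction and the call in both. A fit over all 18 libraries with a term for those above 10% mitochondrial counts called WIF1 (2.79, adjusted p = 0.0318), FZD7 (1.89, adjusted p = 0.0331) and ROR2 (0.63, adjusted p = 0.0477), all higher, where 2.43% of all genes were called and 1.44% as higher. The other 11 genes called by label did not pass there, and several had much smaller folds, such as 0.54 for WNT10B, 0.22 for WNT2B and -0.29 for FZD8, with SFRP5 at -1.76 (adjusted p = 0.0703) and WNT7A at -1.52 (adjusted p = 0.0751).

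**Figure D4:**
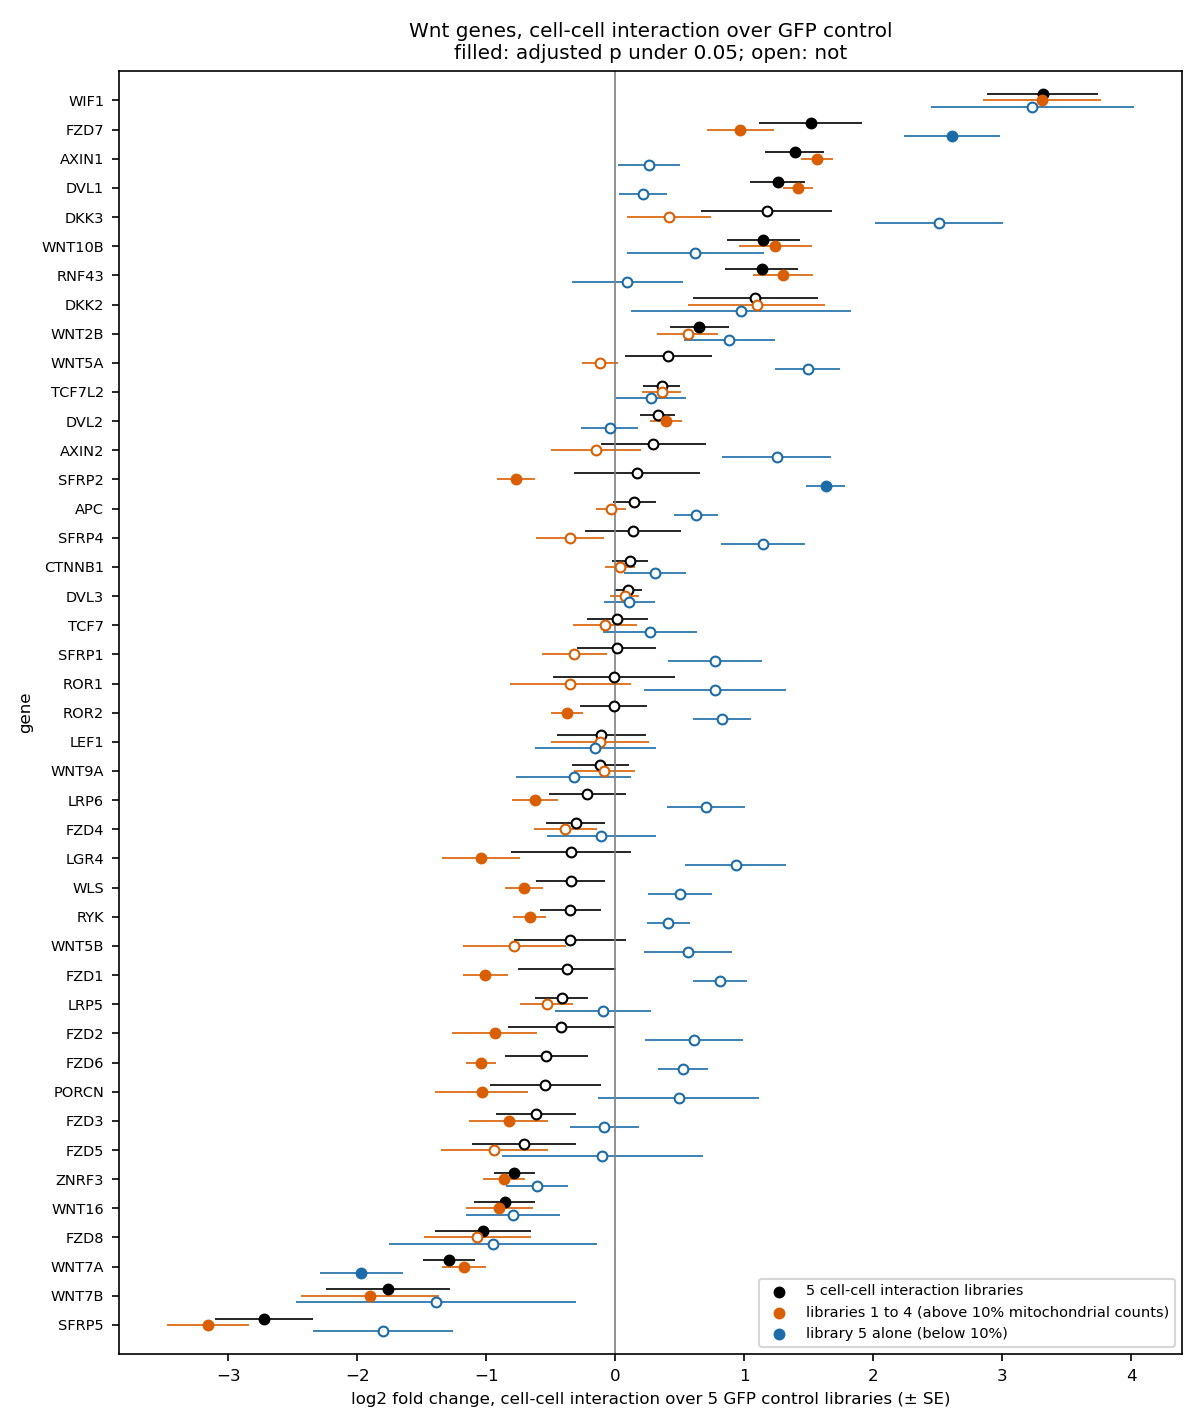
Points give the log2 fold change (with SE) of 43 Wnt genes against the 5 GFP control libraries, for all 5 cell-cell interaction libraries, for libraries 1 to 4 and for library 5 alone, and filled points have an adjusted p under 0.05. SFRP2 lies at -0.77 with libraries 1 to 4 and at 1.63 with library 5, while SFRP5 and WNT7A lie below 0 in all 3 series.

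The share of mitochondrial counts moved with several Wnt genes across labels. In the 6 libraries above 10% (cell-cell interaction 1 to 4 and ST8Sia6 plasmid 4 and 5), AXIN1 had 89.96 to 138 CPM, against 36.4 to 51.9 CPM in the other 12. DVL1 had 152 to 227 CPM in those 6 and 63.5 to 112 CPM in the 12, and RNF43 4.76 to 7.98 and 1.96 to 3.95 CPM. The receptor FZD6 had 134 to 186 CPM in the 6 and 271 to 470 CPM in the 12, RYK 54.4 to 79.9 and 91.2 to 148 CPM, and the carrier WLS 156 to 221 and 239 to 423 CPM. In all, 3 Wnt genes were higher in the 6 without overlap, where 7.68% of all genes were, and 7 were lower, where 8.13% of all genes were (FZD1, FZD2, FZD6, ROR2, RYK, WLS and ZNRF3). What the mitochondrial share stands for, and its part in these levels, was not tested.

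Of the other genes of the Wnt pathway, 69 were listed, and 57 of the 58 with a row were tested between cell-cell interaction and GFP control. Of these, 8 were higher and 10 lower, with a median log2 fold change of -0.06, where 39.5% of all genes were called, 20.8% higher and 18.7% lower, with a median of -0.02. CDH1, the epithelial cadherin that also binds beta-catenin, averaged 55.6 ± 24.9 CPM in cell-cell interaction and 366 ± 127 in GFP control (-2.69, SE 0.31, adjusted p = 0.000277). SCRIB rose by 1.25 (adjusted p = 0.00158), DAAM2 by 2.28 (adjusted p = 0.000636) and PRICKLE1 by 1.27 (adjusted p = 0.0025), and VANGL2 fell by 2.36 (adjusted p = 0.00175). FBXW11, part of the ligase that marks beta-catenin for destruction, averaged 77.9 ± 5.64 CPM in cell-cell interaction and 116 ± 9.09 in GFP control, and fell by 0.55 on the log2 scale (SE 0.10, adjusted p = 0.002). Since CDH1 is also one of the kidney epithelial markers, its level is given beside their sums above, and their part in it was not tested.

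The comparison of ST8Sia6 plasmid with GFP control asks what the ST8Sia6 plasmid goes along with. No Wnt gene passed among 44 tested, and no gene of the 13840 tested did (edgeR's quasi-likelihood test, 0.0% called). Unadjusted p-values under 0.05 were found for 4 Wnt genes and for 9.88% of all genes, DESeq2 called 11 genes of the whole table, and limma-voom called 0. The median log2 fold change was -0.13 over the Wnt genes and 0.02 over all genes, and RSPO1 and WNT3 were not tested.

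The lowest p-value belonged to SFRP2, with 22.02, 23.97, 15.2, 18.8 and 13.5 CPM in ST8Sia6 plasmid 1 to 5, against 26.8, 26.7, 27.8, 29.6 and 29.2 CPM in GFP control. Each ST8Sia6 plasmid library was below each GFP control library, the only Wnt gene without overlap, where 1.03% of all genes had none and 0.621% were lower in that way. Its means were 18.7 ± 4.41 and 28.0 ± 1.34 CPM, with a log2 fold change of -0.56 (SE 0.15) that did not pass (edgeR's quasi-likelihood adjusted p = 0.502). LGR4, the R-spondin receptor, had 30.7, 28.1, 38.0, 16.2 and 20.6 CPM in ST8Sia6 plasmid and 41.3, 36.6, 59.1, 56.1 and 24.5 CPM in GFP control. GFP control 5 lay among the ST8Sia6 plasmid values, and the difference of -0.68 did not pass (SE 0.27, adjusted p = 0.502). WNT16 averaged 3.69 ± 0.66 CPM in ST8Sia6 plasmid and 5.17 ± 0.888 in GFP control, at -0.47 (adjusted p = 0.502).

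ST8Sia6 plasmid 4 and 5 alone against GFP control gave 14 of 45 Wnt genes called, 4 higher and 10 lower, where 14.4% of all genes were called, 6.0% higher and 8.39% lower. AXIN1 was higher by 1.12 (adjusted p = 0.00702), DVL1 by 1.01 (adjusted p = 0.00428), RNF43 by 1.19 (adjusted p = 0.0264) and the inhibitor DKK2 by 2.16 (adjusted p = 0.046). FZD1, FZD2, FZD3, FZD6, LGR4, RYK, SFRP2, SFRP5, WNT5B and ZNRF3 were lower, FZD6 by -0.84 (adjusted p = 0.0105). These 2 libraries carry the high mitochondrial share and, by the weights, stand on the authors' interaction side. That comparison was added after seeing the data. With the libraries under 10% mitochondrial counts only, or with ST8Sia6 plasmid 1 to 3 against GFP control 1 to 4, 0 Wnt genes and 0.0% of all genes were called.

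In the comparison of cell-cell interaction with ST8Sia6 plasmid, 1 of 43 Wnt genes passed, WNT7B, where 0.159% of all genes did and 0.0289% passed as lower. WNT7B (chromosome 5, 3521695 to 3572314, plus strand) had 7.78, 6.93, 6.89, 6.98 and 10.6 CPM in cell-cell interaction, against 15.9, 19.8, 15.1, 17.7 and 13.4 CPM in ST8Sia6 plasmid. Every ST8Sia6 plasmid library was above every cell-cell interaction library, and the difference of -1.03 passed narrowly (SE 0.16, edgeR's quasi-likelihood adjusted p = 0.0414). SFRP5 had 3.89, 2.05, 2.85, 2.88 and 7.86 CPM in cell-cell interaction and 25.2, 28.0, 21.97, 10.9 and 7.81 CPM in ST8Sia6 plasmid. Only cell-cell interaction 5 reached the lowest ST8Sia6 plasmid library, and its difference of -2.22 did not pass (SE 0.44, adjusted p = 0.0531).

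TCF7L2, a TCF/LEF factor, had 91.0, 101, 105, 97.99 and 97.4 CPM in cell-cell interaction and 74.3, 74.2, 73.9, 76.5 and 86.3 CPM in ST8Sia6 plasmid. The labels did not overlap, but the difference of 0.39 did not pass (SE 0.08, adjusted p = 0.0569). Labels were apart without overlap at 4 Wnt genes (WNT7B lower, and TCF7L2, WNT10B and WIF1 higher), where 8.65% of all genes were, 5.31% lower and 3.34% higher. Unadjusted p-values under 0.05 were found for 11 of the 43 and for 32.6% of all genes. The median log2 fold change was 0.05 over the Wnt genes and 0.00 over all genes, and 0 of 57 other Wnt pathway genes passed.

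The calls of this comparison hung on single libraries. Without cell-cell interaction 5, 11 Wnt genes passed, where 23.7% of all genes did, 11.0% higher and 12.6% lower: AXIN1, DVL1, TCF7L2, WIF1 and WNT10B were higher and FZD5, FZD6, LRP6, SFRP5, WLS and WNT7B lower. With ST8Sia6 plasmid 4 and 5 left out, 12 of 44 passed, where 35.5% of all genes did, among them SFRP5 at -2.64 (adjusted p = 0.00304), WNT10B at 1.40 (adjusted p = 0.00329) and WIF1 at 2.40 (adjusted p = 0.0095). Between the 4 and 2 libraries above 10% mitochondrial counts alone, WNT7B (-1.08, adjusted p = 0.0172) and SFRP5 (-1.62, adjusted p = 0.0193) passed, where 2.46% of all genes did. AXIN1 and DVL1 were not called there. With any 1 library other than cell-cell interaction 5 and ST8Sia6 plasmid 5 left out, WNT7B did not pass.

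GFP control against wild type sets cells given the control plasmid beside cells labelled wild type, whose handling is not described further. The receptor FZD7, the ligand WNT2B and the inhibitor DKK3 were lower in GFP control, 3 of 45 Wnt genes tested, where 3.16% of all genes were called and 1.97% were called lower. No Wnt gene passed as higher, where 1.19% of all genes did. The median log2 fold change was -0.36 over the Wnt genes and 0.02 over all genes, and the labels did not overlap at 15 of the 45, 14 lower and 1 higher, where 25.6% of all genes had none, 12.9% lower and 12.7% higher. RSPO1 was not tested.

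FZD7 had 1.47, 2.41, 3.15, 3.08 and 1.98 CPM in GFP control, against 11.8 and 22.8 CPM in wild type 1 and 2. Its log2 fold change was -2.85 (SE 0.34, edgeR's quasi-likelihood adjusted p = 0.00914). Wild type 2 was the higher of its label, and both wild type libraries were far above GFP control.

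WNT2B (chromosome 4, 107903502 to 107921118, minus strand) had 6.67, 7.44, 6.67, 5.76 and 3.75 CPM in GFP control and 18.04 and 16.3 CPM in wild type. The wild type libraries were close to each other and above all of GFP control, at -1.50 (SE 0.25, adjusted p = 0.0206). DKK3 (chromosome 2, 47385191 to 47446538, plus strand) had 10.3, 9.28, 26.1, 21.7 and 10.4 CPM in GFP control and 61.7 and 161 CPM in wild type. Its values were apart by label but spread widely within wild type, with a change of -2.86 (SE 0.47, adjusted p = 0.0207).

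DKK2, an inhibitor in the same family as DKK3, was at -3.35 (adjusted p = 0.0575), SFRP1 at -1.53 (adjusted p = 0.0578) and WIF1 at -2.71 (adjusted p = 0.063), none of which passed. DKK2 had 0.396 to 2.43 CPM in GFP control, against 3.19 CPM in wild type 1 and 20.1 CPM in wild type 2. The 2 wild type libraries differed by 2-fold or more at 15 Wnt genes, 6 higher in wild type 1 (FZD1, LGR4, SFRP2, SFRP4, TCF7 and WNT2) and 9 lower (DKK2, DKK3, LEF1, RSPO1, SFRP1, SFRP5, WNT7A, WNT7B and WNT9A), where 3.05% and 4.66% of all genes did. The fibroblast and pericyte markers, mostly COL1A1 and COL1A2, summed to 9155 to 27607 CPM in GFP control. They summed to 35350 CPM in wild type 1 and 22338 CPM in wild type 2. Single markers of that list differed from the sum. PDGFRB had 1.21 to 4.04 CPM in GFP control, against 25.9 and 109 CPM in wild type 1 and 2. COL3A1 had at most 207.6 CPM in GFP control, against 1477 and 613 CPM in wild type 1 and 2. TCF21 had 4.21 to 6.81 CPM in GFP control and 3.99 and 4.64 CPM in wild type 1 and 2. The part of these markers in the Wnt levels was not tested.

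Without wild type 1, DKK2 (-4.14), DKK3 (-3.39), FZD7 (-3.26) and SFRP1 (-2.01) passed, where 2.74% of all genes did. Without wild type 2, only SFRP2 passed, at -1.43 (adjusted p = 0.0257), where 0.442% of all genes did. With 1 wild type library, that library is assumed to vary like GFP control. Without GFP control 1, 1 Wnt gene passed, as the calls of DKK3 and WNT2B were lost. DKK3 was also not called without GFP control 2, nor WNT2B without GFP control 4. Without GFP control 1 and 2 no Wnt gene passed, where 0.19% of all genes did. GFP control 1 to 4 against wild type 2 gave DKK3, FZD7 and SFRP1, where 1.87% of all genes were called. Of 56 other Wnt pathway genes, 3 passed with all libraries, where 3.16% of all genes did: CDH1 was higher in GFP control by 1.81 (adjusted p = 0.0353), and DAAM2 (-3.68, adjusted p = 0.0115) and DACT1 (-1.12, adjusted p = 0.0396) were lower.

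**Figure D5:**
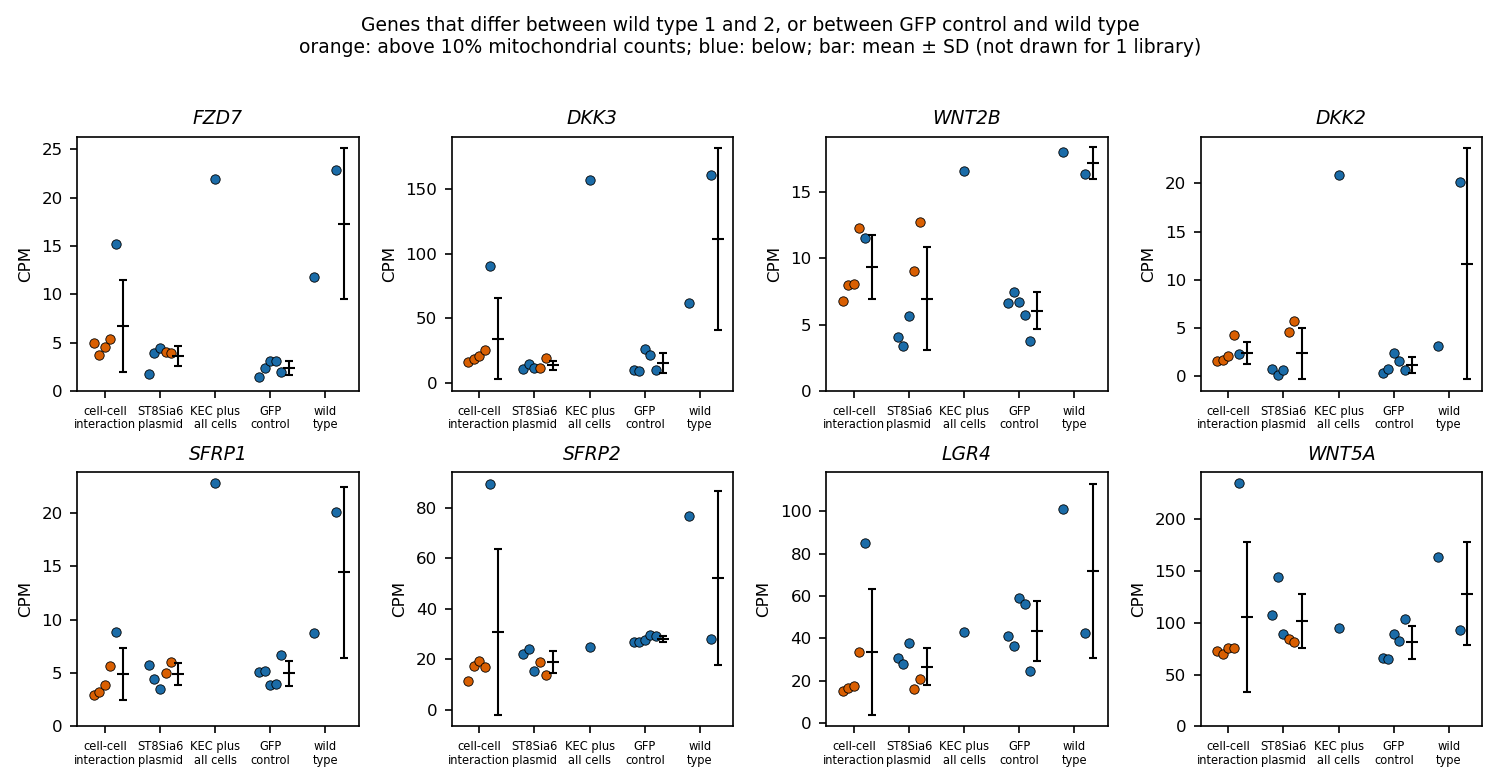
Points give CPM per library for FZD7, DKK3, WNT2B, DKK2, SFRP1, SFRP2, LGR4 and WNT5A, by label from cell-cell interaction to wild type. KEC plus all cells lies beside wild type 2 (157 and 161 CPM of DKK3), and cell-cell interaction 5 beside wild type 1 (89.5 and 76.5 CPM of SFRP2).

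KEC plus all cells was 1 library and has no test. Its Wnt genes were close to those of wild type 2: DKK3 had 157 CPM in KEC plus all cells and 161 CPM in wild type 2, DKK2 20.9 and 20.1 CPM, SFRP5 47.9 and 46.6 CPM, LEF1 32.96 and 34.5 CPM and FZD7 21.9 and 22.8 CPM. LEF1 and DKK2 are neighbours on chromosome 8, with 918150 bases between them, and both were highest in this pair of libraries. That was not particular to these neighbours. Wnt genes on other chromosomes, among them DKK3, SFRP1, FZD7, SFRP5, RSPO1 and WNT9A, were also highest in this pair.

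The authors' deposited table gives 4 comparisons, each as the first named side minus the second. Its St8i6a plasmid and GFP control sides differed, at an FDR under 0.05, at 0 of 46 Wnt genes and 1.37% of all genes. In the authors' deposited table, the St8i6a plasmid side minus its interaction side gave 16 Wnt genes, 3 positive and 13 negative, where 25.2% of all genes were called, 10.5% positive and 14.7% negative. Its values in the authors' deposited table were -1.57 for WNT2B, -2.06 for DKK3, 2.25 for SFRP5 and -2.07 for WIF1. For the GFP control side minus its interaction side, the authors' deposited table held 28 Wnt genes, 21 positive and 7 negative, where 49.5% of all genes were called, 25.3% positive and 24.3% negative. There the authors' deposited table gave -3.38 for WIF1, 1.85 for WNT5B, 1.05 for ZNRF3 and -1.44 for AXIN1. Negative values there mean a higher level on the interaction side.

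Between the interaction sides, GFP minus st8i6a, the authors' deposited table held 14 Wnt genes, all negative and so lower on the GFP side, where 4.74% of all genes were called and 3.81% as negative. They were WNT5B, AXIN2 (-1.81), FZD2 (-1.80), ROR1 (-2.05), FZD3, LEF1, LGR4, SFRP2, TCF7, DKK3, FZD1, WNT2, FZD6 and SFRP4. By the weights above, the GFP side there held cell-cell interaction 1 and 2 with ST8Sia6 plasmid 4 and 5, all above 10% mitochondrial counts. By the same weights, the st8i6a side held cell-cell interaction 3, 4 and 5 with wild type 1, of which 2 are above 10%. AXIN2, a widely used readout of beta-catenin activity, had 1.94 and 2.14 CPM in ST8Sia6 plasmid 4 and 5 and 2.27 and 2.89 CPM in cell-cell interaction 1 and 2. It had 4.22, 6.54 and 11.0 CPM in cell-cell interaction 3, 4 and 5 and 10.5 CPM in wild type 1. These sets come from weights on the same deposited comparison that called AXIN2, so their separation is no further support. Of the other beta-catenin targets among the Wnt genes, LEF1 and TCF7 were also called there. RNF43 (0.13) and ZNRF3 (-0.47) were not called in the authors' deposited table.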

How the data were processed

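Total RNA of 18 libraries was measured, grouped by label alone. Per the submitters' processing notes, the build was susScr11, and the tools named were STAR 2.7.10a, edgeR 3.40.2, featureCounts (Subread 2.0.3) and FastQC 0.11.5. Annotation, strand handling and filter: not given in the sources used here. The authors deposited raw counts per gene, and genes in these tables had at least 23 counts in all. The log2 CPM and log2 fold changes, the signed fold change (a score) and the p-value and FDR columns were computed by the authors, per the file headers. The other column used, gene length in bases, was also deposited.

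Each pair of labels was fitted alone with edgeR 4.0.16 (limma 3.58.1, R 4.3.3): filterByExpr, TMM, robust quasi-likelihood test, two-sided, adjusted p under 0.05. CPM were scaled by TMM over all libraries. Recomputed log2 CPM differed from the deposited values by at most 4.97e-14. The test was tested on simulated data with known changes. Alternatives were RLE scaling, no filter, limma-voom, DESeq2 1.42.0, genes averaging 5 CPM or more, all libraries in 1 fit, a term for libraries above 10% mitochondrial counts, subsets of libraries and each library left out.

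Named genes were those called that averaged 1 CPM or more in the higher label, else the 3 with the lowest p, the 3 highest per kilobase in each class, and up to 6 other pathway genes. Genes outside this rule that are named for a subset of libraries or a marker were chosen after their values were seen. The members and lists were chosen with earlier results of these data known. SDs are between libraries. No promoter or protein sequences were used here.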

Additional observations from a re-analysis of the deposited data

Results flagged for a closer look

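In 14 of 127 sets of 5 libraries of 1 label tested, 1 library of the 5 lay far from the others (its gap to the nearest over the whole range was above 0.71), which chance does for about 1 set in 20. Values of 1 library share its depth and preparation. Of the 14, 12 were cell-cell interaction 5, the label's only library below 10% mitochondrial counts. High there were FZD6 at 470 CPM (the others 134 to 184), FZD7 at 15.2 CPM (3.72 to 5.38), LRP6 at 134 CPM (46.1 to 55.0), ROR2 at 67.9 CPM (26.2 to 30.3), WLS at 423 CPM (156 to 191) and PORCN at 20.1 CPM (5.89 to 7.96). Of ligands and inhibitors, those that lay so were WNT5A at 235 CPM (69.5 to 75.9), WNT7B at 10.6 CPM (6.89 to 7.78), DKK3 at 90.8 CPM (16.2 to 25.8) and SFRP2 at 89.5 CPM (11.4 to 19.3). WNT7A and WNT10B were instead lowest of the label in that library, at 9.53 and 5.41 CPM, though not so far from the others. AXIN1 was low at 51.9 CPM (110 to 138) and DVL1 at 90.8 CPM (175 to 227). The other 2 were FZD7 at 1.79 CPM in ST8Sia6 plasmid 1 (3.91 to 4.43) and TCF7L2 at 86.3 CPM in ST8Sia6 plasmid 5 (73.9 to 76.5).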

How the results depend on the processing

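For cell-cell interaction against GFP control, 13 Wnt genes and 5510 genes were called; 3 and 371 with the mitochondrial term, 3 and 140 with libraries under 10% mitochondrial counts only, 2345 genes changed by 1 or more on the log2 scale, and 23 Wnt genes with cell-cell interaction 1 to 4 only. Leaving out 1 library gave 11 to 23 Wnt genes and 4099 to 7130 genes, the most without cell-cell interaction 5. For ST8Sia6 plasmid against GFP control, 0 and 0 were called, 11 genes by DESeq2, 14 Wnt genes and 2089 genes with ST8Sia6 plasmid 4 and 5 only, and 0 to 0 Wnt genes and 0 to 1 genes with 1 library left out. For cell-cell interaction against ST8Sia6 plasmid, 1 Wnt gene and 22 genes were called; 3 and 112 at a mean of at least 5 CPM, 7 and 2705 by DESeq2, 4 and 337 by limma-voom, 3 and 1320 with all libraries in 1 fit, 271 genes with the mitochondrial term, 2 and 151 without mitochondrially encoded genes, 0 and 2 under 10% mitochondrial counts, 2 and 352 above it, and 12 and 5097 without ST8Sia6 plasmid 4 and 5. Leaving out 1 library gave 0 to 11 Wnt genes and 0 to 3308 genes; 6 and 2806 without ST8Sia6 plasmid 5, 11 and 3308 without cell-cell interaction 5, and 0 Wnt genes without any other. For GFP control against wild type, 3 Wnt genes and 458 genes were called; 305 genes at 5 CPM, 9 and 1410 by DESeq2, 5 Wnt genes in 1 fit, 6 and 1341 with the mitochondrial term, 0 and 27 without GFP control 1 and 2, and 277 genes with GFP control 1 to 4 and wild type 2. Leaving out 1 library gave 1 to 4 Wnt genes and 65 to 407 genes: 1 Wnt gene without GFP control 1 or wild type 2. No gene named as called, or for the lowest p-values, in a comparison changed sign in that comparison's alternatives. Of genes not called between cell-cell interaction and GFP control by label, SFRP2 (0.17 by label) was at -0.77 with cell-cell interaction 1 to 4 and 1.63 with libraries under 10% mitochondrial counts, and ROR2 (-0.01 by label) at -0.37 and 0.83. The causes were not tested. The 12 per-kilobase levels examined were 7.25 to 75.0 for receptors, ligands and WLS and 4.02 to 56.5 for the others; as TPM, each was higher, at 15.5 to 188 and 9.08 to 121, and the order within each class of 3 was the same, while RLE scaling moved none by more than the spread. No paired analysis was possible because replicate numbers come from sample order and pair nothing. The search for TCF/LEF motifs in promoters was not run, as no promoter table was used here. Genes at a few counts, such as WIF1 and WNT2, are limited by depth.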
